A study of Mus musculus with 20 samples.

Results

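Fos, Fosb, Fosl1, Fosl2, Jun, Junb, Egr1, Egr2, Ier2 and Atf3, genes of the immediate-early response and of the AP-1 transcription factor, were followed through RNA and chromatin of mouse embryonic fibroblasts (MEFs) with and without PML. They were chosen by name, all 10 were listed in the 4 RNA tables, and they are 10 of the 22593 genes that those tables share.

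Immediate-early genes are transcribed within minutes of a growth or stress signal, without new protein synthesis, and their RNAs decay quickly. Fos and Jun proteins pair through leucine zippers into AP-1, which binds its sites in DNA and drives later genes of growth, migration and matrix turnover. In fibroblasts the response is best known from serum added to resting cells, where kinases of the ERK and p38 cascades act through the factors SRF, ELK1 and CREB at these promoters.

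KO cells were MEFs from Pml-null mice, and WT cells were MEFs from wild-type mice of the same C57BL/6 background, both at passages 10 to 15, proliferating and without treatment. PML is the protein that builds PML nuclear bodies. ChIP was done at confluency for H3, H3K9me3, H3K27me3 and PML, and for the histone variant H3.3 carrying a Flag or an HA tag, in cells transfected with the tagged histone. RNA came from native cells, as 3 numbered samples per genotype that the authors pooled into 1 table (the numbered pair), and as 1 unnumbered sample per genotype (the unnumbered pair). The labels do not say how many mice or cultures the samples came from.

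Each gene thus had 1 RNA value per genotype in each pair and 1 ChIP library per target and genotype. No difference below could be tested against replicates, and each one compares single libraries or pooled tables. RNA is given as FPKM, a count of sequenced fragments divided by transcript length and by the size of the library. Differences are KO minus WT of log2(FPKM + 1), which understates the ratio of genes with low FPKM. The pairs of tables were normalized separately, so levels set across pairs are side-by-side values.

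The promoters are shown because H3.3 and H3K27me3 calls over these genes are compared between genotypes further on, and because several of the genes were lower together in KO. RefSeq windows (GRCm38.p6, the assembly of mm10) from 250 bases before to 50 bases after the start were at hand for 7 of the 10 genes, not for Fosl1, Egr1 and Ier2, with 5 windows for Egr2, of which 1 is printed. Sequences run 5′ to 3′ on the strand of the gene, and capitals mark matches to the motifs named after them.
Fos, chr12:85473640-85473939, plus strand: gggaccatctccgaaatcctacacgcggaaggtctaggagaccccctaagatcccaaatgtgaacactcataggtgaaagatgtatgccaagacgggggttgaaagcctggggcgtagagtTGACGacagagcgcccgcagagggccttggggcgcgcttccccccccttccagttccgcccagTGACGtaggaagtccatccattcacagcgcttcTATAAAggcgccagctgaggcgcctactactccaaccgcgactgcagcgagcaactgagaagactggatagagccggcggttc
Fosb, chr7:19309996-19310295, minus strand: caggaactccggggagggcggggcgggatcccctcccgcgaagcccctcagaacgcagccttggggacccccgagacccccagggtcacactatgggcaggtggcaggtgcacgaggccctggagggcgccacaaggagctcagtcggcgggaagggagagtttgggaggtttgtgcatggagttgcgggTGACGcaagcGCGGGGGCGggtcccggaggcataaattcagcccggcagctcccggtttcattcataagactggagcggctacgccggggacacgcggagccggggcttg
Jun, chr4:95052173-95052472, minus strand: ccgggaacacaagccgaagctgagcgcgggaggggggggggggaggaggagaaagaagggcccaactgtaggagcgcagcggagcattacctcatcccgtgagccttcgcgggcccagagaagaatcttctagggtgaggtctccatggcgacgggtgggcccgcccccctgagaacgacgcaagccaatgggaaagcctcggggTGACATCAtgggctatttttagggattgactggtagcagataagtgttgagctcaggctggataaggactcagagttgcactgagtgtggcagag
Junb, chr8:84978699-84978998, minus strand: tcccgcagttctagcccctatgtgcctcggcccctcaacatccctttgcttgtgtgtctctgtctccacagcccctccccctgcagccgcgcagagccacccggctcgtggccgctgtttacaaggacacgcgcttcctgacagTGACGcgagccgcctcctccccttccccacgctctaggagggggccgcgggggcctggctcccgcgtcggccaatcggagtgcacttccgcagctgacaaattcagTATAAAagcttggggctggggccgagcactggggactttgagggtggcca
Egr2, chr10:67537619-67537918, plus strand: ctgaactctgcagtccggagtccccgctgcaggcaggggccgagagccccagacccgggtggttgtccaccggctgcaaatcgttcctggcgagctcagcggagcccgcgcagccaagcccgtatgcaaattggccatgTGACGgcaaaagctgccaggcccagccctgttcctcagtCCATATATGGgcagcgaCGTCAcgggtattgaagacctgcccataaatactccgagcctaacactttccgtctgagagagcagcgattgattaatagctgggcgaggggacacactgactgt
Atf3, chr1:191183284-191183583, minus strand: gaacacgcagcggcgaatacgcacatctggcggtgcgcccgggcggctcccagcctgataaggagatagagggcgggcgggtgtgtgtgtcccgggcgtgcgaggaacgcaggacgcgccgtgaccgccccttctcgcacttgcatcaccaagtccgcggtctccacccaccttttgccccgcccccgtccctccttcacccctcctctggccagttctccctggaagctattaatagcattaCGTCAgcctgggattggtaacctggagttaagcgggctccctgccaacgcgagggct

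The motifs searched on both strands were the CArG box bound by SRF, the cAMP response element TGACGTCA and its 5-base core TGACG, the wider form TGACNTCA, the AP-1 site TGANTCA, the EGR site GCGNGGGCG and the TATA box TATAAA. TGACGTCA holds the core and is also a TGACNTCA match. The core was present in 5 of the 7 genes (Fos, Fosb, Junb, Egr2 and Atf3) and, counted by window, in 7 of their 11 windows (5 of the 11 belong to Egr2 and partly overlap), against 20.8% of all 32851 promoter windows. In Fos it began 129 and 66 bases before the start, and the TATA box began 33 bases before it. TATAAA was present in 2 of the 7 genes, Fos and Junb, against 13.6% of all windows. In Junb it lay at bases 1 to 6 counted from the annotated start, and so not before it. Fosb had the core 60 bases and an EGR site 50 bases before the start, and Fosl2 an EGR site 79 bases before it, while 5.55% of all windows held an EGR site.

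Jun had the only TGACNTCA match of the 7 genes, TGACATCA, which began 45 bases before its start, against 8.83% of all windows. Within the windows of the 7 genes, the CArG box was found only in Egr2, 72 bases before the start in the window shown, against 1.63% of all windows. Neither TGACGTCA nor TGANTCA was found in the windows of the 7 genes, against 1.79% and 7.81% of all windows. The 11 windows, 5 of them of Egr2, had a median G and C content of 60% and 21 CpG, against 52.7% and 7 CpG over all windows. A match is a run of letters, not evidence of binding.

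Values of the whole series that touch the RNA results were as follows. Summed FPKM was 409078 in KO and 948032 in WT of the numbered pair, and 499754 in KO and 514537 in WT of the unnumbered pair. Rescaling each table to the same summed FPKM moved the median difference of all genes to 1.16 in the numbered pair, against 0.06 as deposited, and to 0.05 in the unnumbered pair, against 0.01. Numbered differences of the 10 genes, taken relative to the median of all genes, moved by at most 0.21 under that rescaling. Pml was listed at 10.2 FPKM in KO and 15.0 FPKM in WT of the numbered pair, and at 4.22 FPKM in KO and 7.62 FPKM in WT of the unnumbered pair, and a value per gene does not show which exons the RNA held.

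Of 13 macrophage markers, 11 of the 12 measured in the unnumbered pair were lower in KO by at least 2-fold, with sums of 13.2 FPKM in KO and 193.6 FPKM in WT. Their sums in the numbered pair were 3.96 FPKM in KO and 2.92 FPKM in WT, with 6 of them listed at 0 in KO and 8 in WT, among them Tyrobp, Aif1, C1qa, C1qb and C1qc in both. Tyrobp and Aif1 were also at 0 in KO of the unnumbered pair, where no marker was at 0 in WT. Xist had 0.0517 FPKM in KO and 19.5 FPKM in WT of the numbered pair, and the Y-linked Ddx3y had 7.67 FPKM in KO and 0.0384 FPKM in WT. In the unnumbered pair Xist had 8.25 FPKM in KO and 5.89 FPKM in WT, and Ddx3y 11.4 and 21.7 FPKM. Of the 10 fibroblast markers, 0 were listed at 0 in any table, but the surface marker Thy1 had 0.100 FPKM in KO and 0.141 FPKM in WT of the numbered pair, against 120 and 209.8 FPKM in the unnumbered pair. Fibroblast markers past 2-fold in the unnumbered pair were Pdgfra (-2.85) and Col3a1 (-1.16), both lower in KO, and in the numbered pair Pdgfra (1.87) was higher and Col1a1 (-1.76) and Pdgfrb (-1.64) lower. Epithelial markers summed to at most 0.633 FPKM and endothelial markers to at most 2.77 FPKM in any table. Of the 4 muscle markers, Myog was listed at 0 in all 4 tables and Myod1 at no more than 0.0842 FPKM. Des had 5.07 FPKM in KO and 21.7 FPKM in WT of the unnumbered pair, and 57.1 FPKM in KO and 2.70 FPKM in WT of the numbered pair. Tnnt2 had 0.138 FPKM in KO and 4.95 FPKM in WT of the unnumbered pair, and 12.6 FPKM in KO and 199 FPKM in WT of the numbered pair. The part of these differences in the results below was not tested.

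In the unnumbered pair, 7 of the 9 genes measured were lower in KO by at least 2-fold and 0 were higher. Over all 11687 genes measured in that pair, 3.83% were lower and 1.74% higher. A gene counted as measured at 1 FPKM or more in either genotype, and Fosl1 was below that in both. Across the 9 genes the median difference was -2.05, and over all genes 0.01. In the numbered pair, 4 of the 10 genes were at least 2-fold lower and 3 higher, against 15.7% lower and 6.5% higher of 11055 genes. After that rescaling, none of the 10 was lower and 6 were higher in the numbered pair, against 5.52% and 57.8% of all genes. Fewer cells of a type and less RNA per cell cannot be told apart in these tables.

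**Figure D1:**
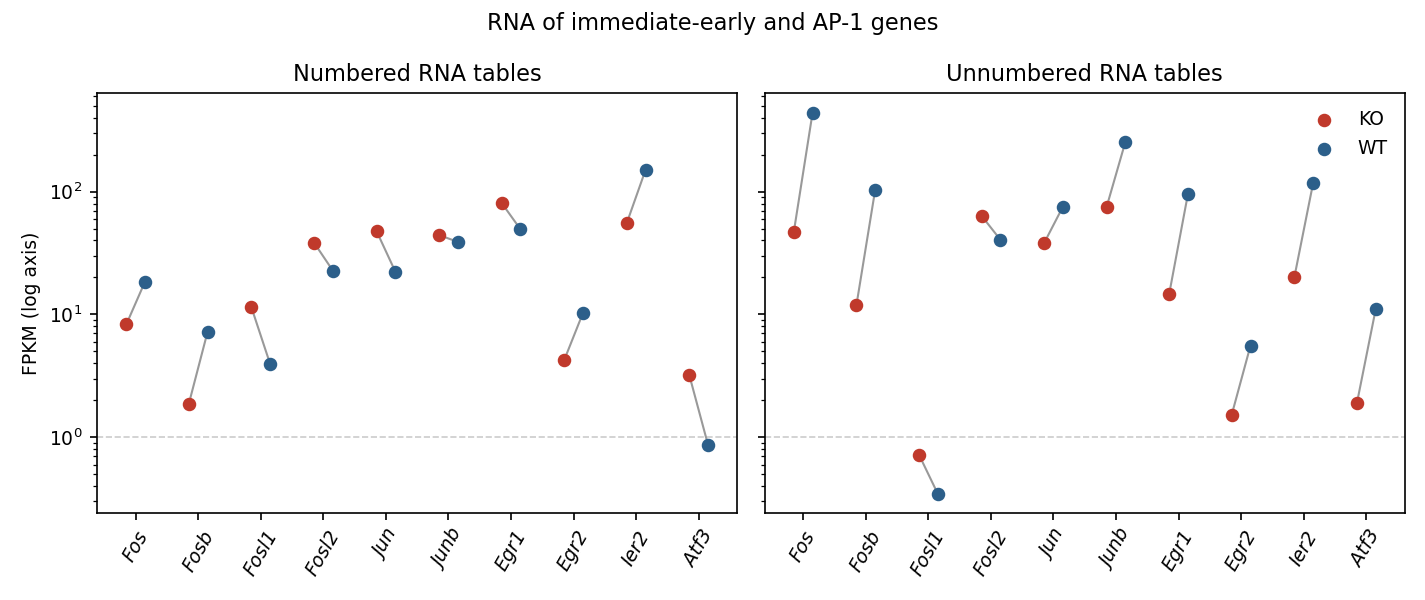
RNA level of the 10 genes in KO (red) and WT (blue) as FPKM on a log axis, in the numbered pair (left) and the unnumbered pair (right), with 1 value per genotype and a dashed line at 1 FPKM. In the unnumbered pair the KO point is below the WT point for every gene except Fosl1 and Fosl2; in the numbered pair 4 genes are lower in KO, of which Fos turns to a difference of 0.0496 when the tables are rescaled to the same sum.

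Fos encodes the AP-1 partner that resting fibroblasts nearly lack and that serum induces. It had 47.1 FPKM in KO and 440 FPKM in WT of the unnumbered pair, where the WT level was 9.34 times the KO level. That WT value stood at the 99.3 percentile of all genes in its table, and the KO value at the 92.8 percentile. In the numbered pair Fos had 8.29 FPKM in KO and 18.5 FPKM in WT, a difference of -1.07, which turned to 0.0496 after rescaling to the same sum. Relative to the median of all genes it lay at -1.13 as deposited and at -1.11 after rescaling. Set side by side, Fos was highest in WT of the unnumbered pair and lowest in KO of the numbered pair, and the KO value of the unnumbered pair was above the WT value of the numbered one. Whether neighbours in that order differ could not be tested.

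Fosb, a Fos relative with the same inducible behaviour, had 11.9 FPKM in KO and 103 FPKM in WT of the unnumbered pair, a difference of -3.02. It had 1.88 FPKM in KO and 7.24 FPKM in WT of the numbered pair, a difference of -1.52 that was -0.63 after rescaling. Fosb was thus lower in KO in both pairs under every scaling tried. Its pattern over the 4 tables was close to that of Fos, at a distance of 0.63 on centred log2 values. The other genes most like Fos among 9467 searched were Hist1h2bj (0.58), Zcchc5 (0.64), Lum (0.84), Mmp3 (0.90) and Lrrn3 (1.00). Lum encodes a matrix proteoglycan and Mmp3 a matrix protease, and Mmp3 is a textbook AP-1 target. These distances rest on 4 values per gene, of which the pair with the larger spread weighs most.

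Fosl2 and Fosl1, which encode the late and more stable FOS proteins Fra-2 and Fra-1, were not lower in KO. Fosl2 had 63.6 FPKM in KO and 40.6 FPKM in WT of the unnumbered pair, and 38.5 FPKM in KO and 22.8 FPKM in WT of the numbered pair. Its differences of 0.63 and 0.73 were both under 2-fold, and the numbered one was 1.92 after rescaling. Fosl1 had 11.4 FPKM in KO and 3.94 FPKM in WT of the numbered pair, a difference of 1.33 (2.49 after rescaling). In the unnumbered pair it had 0.722 FPKM in KO and 0.347 FPKM in WT, too low to be counted as measured.

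The make-up of the FOS family differed between genotypes in both pairs. Fos made up 38.2% of summed family FPKM in KO and 75.3% in WT of the unnumbered pair, and 13.8% in KO and 35.3% in WT of the numbered pair. Fosl2 made up 51.6% in KO and 6.96% in WT of the unnumbered pair, and 64.0% in KO and 43.4% in WT of the numbered pair. These shares do not depend on how a table is scaled. In KO of both pairs Fosl2 was the most abundant family member, while in WT it was Fos in the unnumbered pair and Fosl2 in the numbered pair. The family summed to 123 FPKM in KO and 584 FPKM in WT of the unnumbered pair, and to 60.04 FPKM in KO and 52.5 FPKM in WT of the numbered pair.

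**Figure D2:**
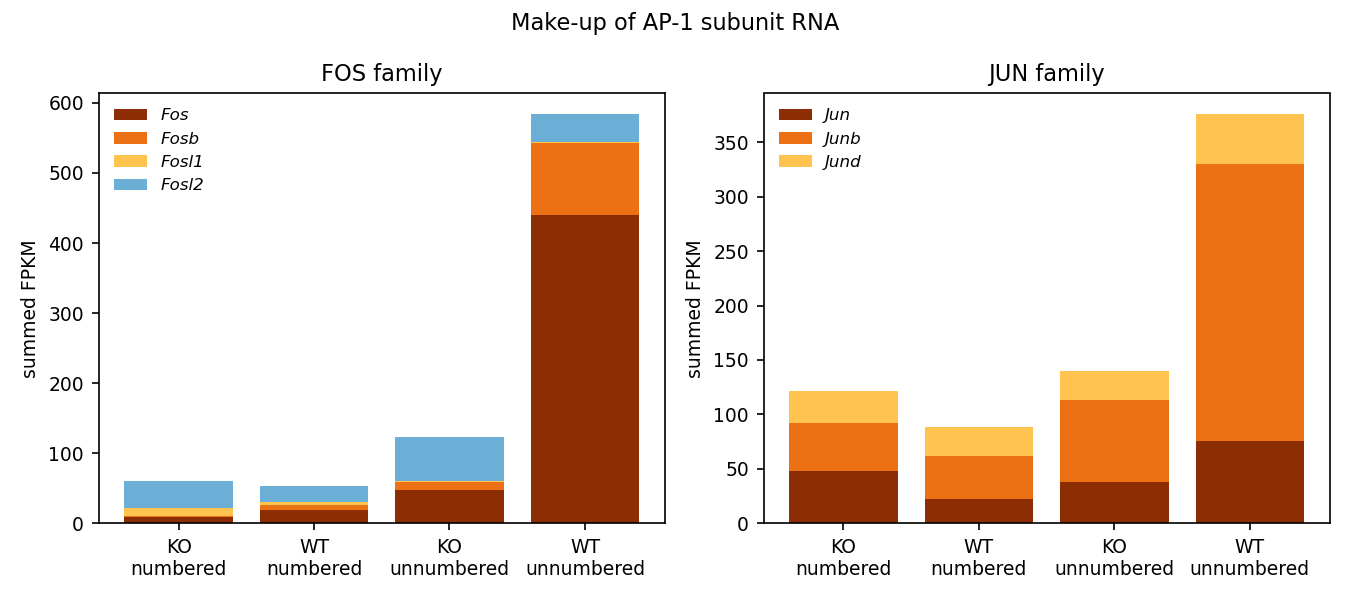
Summed FPKM of the FOS family (left) and the JUN family (right) in each of the 4 RNA tables, stacked by gene, with KO left of WT in each pair. The WT table of the unnumbered pair stands at 584 FPKM for FOS genes, of which Fos gives 75.3%, against 123 FPKM in KO.

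Jun encodes the main partner of Fos in AP-1. It had 38.1 FPKM in KO and 75.2 FPKM in WT of the unnumbered pair, a difference of -0.96, just under 2-fold. Jun had 47.7 FPKM in KO and 22.3 FPKM in WT of the numbered pair, a difference of 1.06 (2.26 after rescaling), so the direction was the opposite of that in the unnumbered pair. Junb, whose product forms weaker AP-1 pairs and can oppose Jun, had 75.1 FPKM in KO and 254.5 FPKM in WT of the unnumbered pair, a difference of -1.75. Junb had 44.2 FPKM in KO and 39.0 FPKM in WT of the numbered pair, a difference of 0.18 (1.37 after rescaling). Its numbered difference relative to the median of all genes was 0.12, or 0.22 after rescaling.

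Jund, the JUN gene with steady expression and not 1 of the 10 genes, had 26.5 FPKM in KO and 46.4 FPKM in WT of the unnumbered pair, a difference of -0.79, and 29.1 FPKM in KO and 26.7 FPKM in WT of the numbered pair. JUN family shares were more alike between genotypes than FOS family shares. Junb made up 53.8% in KO and 67.7% in WT of the unnumbered pair, and 36.5% in KO and 44.3% in WT of the numbered pair. Jun made up 27.3% in KO and 20.0% in WT of the unnumbered pair, and 39.4% in KO and 25.4% in WT of the numbered pair.

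Egr1 and Egr2 encode zinc finger factors that bind GC-rich sites and that serum induces through SRF. Egr1 had 14.7 FPKM in KO and 95.9 FPKM in WT of the unnumbered pair, a difference of -2.62. Egr1 had 80.8 FPKM in KO and 49.4 FPKM in WT of the numbered pair, a difference of 0.70 (1.90 after rescaling) in the opposite direction. Its KO value stood at the 79.0 percentile of the unnumbered table and at the 96.3 percentile of the numbered one. Egr2, a lower-level relative, had 1.53 FPKM in KO and 5.58 FPKM in WT of the unnumbered pair, a difference of -1.38. Egr2 had 4.25 FPKM in KO and 10.3 FPKM in WT of the numbered pair, a difference of -1.10 that shrank to -0.06 after rescaling, or -1.16 and -1.21 relative to the median of all genes.

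Ier2, a short nuclear immediate-early gene, had 20.1 FPKM in KO and 117 FPKM in WT of the unnumbered pair, a difference of -2.49. Its numbered values were 55.5 FPKM in KO and 150.1 FPKM in WT, a difference of -1.42 that was -0.22 after rescaling. Ier2 was thus lower in KO in both pairs, and relative to the median of all genes its numbered difference was -1.48, or -1.38 after rescaling. Atf3 encodes a stress-induced factor that pairs with JUN proteins. It had 1.89 FPKM in KO and 10.99 FPKM in WT of the unnumbered pair, a difference of -2.05. Atf3 had 3.20 FPKM in KO and 0.862 FPKM in WT of the numbered pair, a difference of 1.17 (2.21 after rescaling), and it was counted as measured there only through its KO value. In all, Fos, Fosb, Egr2 and Ier2 were at least 2-fold lower in KO in both pairs as deposited, and Jun, Junb, Egr1 and Atf3 differed in direction between the pairs. The share of all genes with either pattern was not counted.

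**Figure D3:**
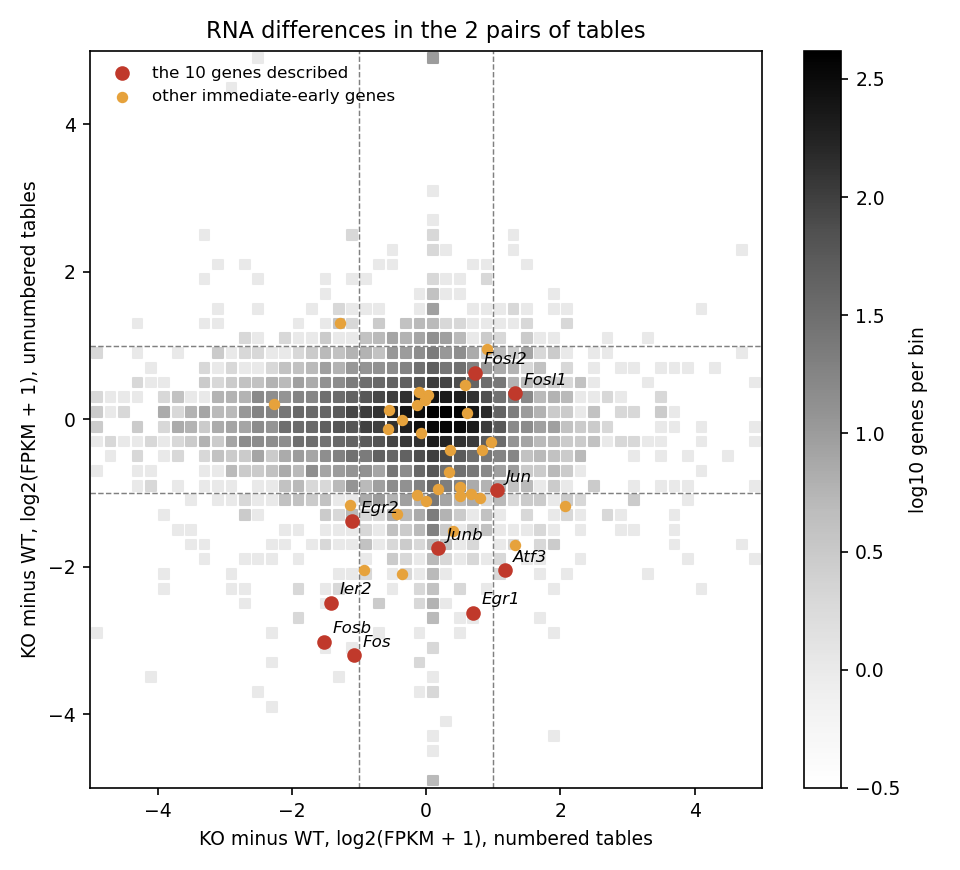
KO minus WT of log2(FPKM + 1) in the numbered pair (horizontal) and the unnumbered pair (vertical) for the 10 genes (red), the other immediate-early genes (orange) and all genes (grey bins, log10 number of genes, values beyond the axes placed in the outermost bins), with dashed lines at 2-fold. Fos, Fosb, Egr2 and Ier2 lie at the lower left, while Jun, Junb, Egr1 and Atf3 lie at the lower right; rescaling each table to the same sum moves the median of all genes on the horizontal axis to 1.16, and Fos then crosses 0.

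Other immediate-early genes, taken from a list of 34, gave 12 of 31 measured genes that were lower in KO by at least 2-fold in the unnumbered pair and 1 that was higher, against 3.83% and 1.74% of all genes, with a median of -0.42. The orphan nuclear receptor gene Nr4a1 had 25.4 FPKM in KO and 112 FPKM in WT, a difference of -2.10, and its relative Nr4a2 was at -1.70. Zfp36, which encodes a protein that destabilizes AU-rich RNAs, had 23.3 FPKM in KO and 99.2 FPKM in WT, and Btg2, an antiproliferative gene, had 58.1 FPKM in KO and 168 FPKM in WT. The 1 higher gene was Ctgf, a matrix-associated growth factor gene, with a difference of 1.31, and of -1.28 in the numbered pair. In the numbered pair 3 of 32 were higher and 3 lower, with a median of 0.10, against 6.5% and 15.7% of all genes. After rescaling to the same sum 23 were higher and 1 lower, when 57.8% of all genes were higher and 5.52% lower. As deposited, Egr3 (2.07), Dusp2 (1.83) and Nr4a2 (1.33) were the higher ones, and Ier5l, at -2.26, was the furthest below.

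Kinases and factors upstream of the 10 genes, 15 in the list, gave 0 genes past 2-fold in either direction in the unnumbered pair. Of all genes in that pair, 1.74% were higher and 3.83% lower. In the numbered pair the ERK kinase gene Mapk3 (-1.15) and the MEK gene Map2k2 (-2.82) were lower, and the RSK kinase genes Rps6ka1 (1.32) and Rps6ka3 (1.18) higher. Of all genes in the numbered pair, 15.7% were lower and 6.5% higher. After rescaling 11 of the 15 were higher and 1 lower, when 57.8% of all genes were higher and 5.52% lower. Of 10 other AP-1 and partner genes measured in the numbered pair, 1 was past 2-fold, Batf3 (-1.39), which had 0.588 FPKM in KO and 3.17 FPKM in WT. After rescaling 6 of these partner genes were higher and 0 lower, beside the same 57.8% and 5.52% of all genes.

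AP-1 target genes did not follow a single direction. Of 13 measured in the unnumbered pair 2 were higher and 2 lower, against 1.74% and 3.83% of all genes. Of 10 in the numbered pair 5 were higher and 2 lower, against 6.5% and 15.7% of all genes. After rescaling 8 were higher and 2 lower, against 57.8% and 5.52% of all genes. The protease genes Mmp3 (-2.58) and Mmp13 (-1.11) were lower in KO of the unnumbered pair, where Plaur, the urokinase receptor gene (2.00), and the cytokine gene Il11 (1.17) were higher. In the numbered pair Il11 (2.70) and the EGF-family gene Areg (1.98) were higher, and the protease inhibitor gene Timp1 (-3.20) and Il6 (-2.45) were lower. Heat shock genes gave 2 of 7 lower in the numbered pair, Hspb1 (-2.22) and Hspa1a (-1.34), and 0 of 7 past 2-fold in the unnumbered pair. ATF4 stress targets gave 1 of 7 lower in each pair, Ddit3 (-3.03) in the numbered and Trib3 (-1.45) in the unnumbered pair.

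In chromatin, the bodies of the 10 genes were short, with a median length of 5.59 kb (1.52 to 21.4 kb), against 24.3 kb for genes expressed in both pairs. A body was counted as covered where at least 50% of it lay under called regions of a library. H3.3 was the mark found over nearly all of them. H3.3 is the replication-independent H3 variant that is placed at active genes and at silent repeats.

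H3.3-Flag regions covered all 10 genes in KO and all 10 in WT, each body over 98.4% to 100% of its length. Over 9766 expressed genes, 39.2% were covered in KO and 37.1% in WT. Among the expressed genes no longer than Fosl2, the longest of the 10, 45.1% were covered in KO and 45.5% in WT. The signal of the Flag region over the gene was lower in KO at all 10 genes, at 4.71 to 52.7 in KO and 25.1 to 80.4 in WT. The KO to WT ratio ran from 0.119 at Fos to 0.655 at Egr1, with a median of 0.427. Each signal is that of a region called separately in its genotype, so these ratios compare regions of different lengths and not the same bases. The signal was lower in KO at 97.8% of 7361 expressed genes with a region in both, where the median ratio was 0.404, so a lower signal in KO was not particular to the 10 genes.

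Regions at Fos differed in length. The Flag region spanned 52 kb (chr12:85446001-85498000) with a signal of 4.71 in KO, and 17 kb (chr12:85472001-85489000) with a signal of 39.4 in WT. The KO region began 27.9 kb before the gene and ended 20.7 kb after it, and the WT region reached 1.89 kb before and 11.7 kb after it. Over the 10 genes the KO region was longer at 6, shorter at 3 and of the same length at Ier2, where both spanned 149 kb. Egr2 and Fosb also had low KO signals, of 5.71 and 7.04 in KO against 25.1 and 39.5 in WT.

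H3.3-HA regions covered 6 of the 10 genes in KO and 8 in WT, against 34% of expressed genes in KO and 14.5% in WT. Among the expressed genes no longer than Fosl2 these figures were 43% in KO and 24.6% in WT. Fosb was uncovered in KO and covered over 98.4% of its body in WT, and Jun was uncovered in KO and wholly covered in WT. A drop of at least 50 percentage points, possible only for genes covered in WT, was thus seen at 2 of 8 such genes, against 465 of 1418 expressed genes covered in WT (32.8%, or 4.76% of all expressed genes), so these drops were not more frequent than the background. A gain of that size was seen at 23.8% of expressed genes and at none of the 10. Fos was uncovered in KO and had 32.8% of its body under a 3 kb region in WT (chr12:85472001-85475000), and Egr2 was uncovered in both. The nearest HA region in KO lay 230.9 kb from Fos, 203.9 kb from Fosb and 1336 kb from Jun.

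Where both genotypes had an HA region over the gene, at Fosl1, Fosl2, Junb, Egr1, Ier2 and Atf3, the KO region was the longer and had the lower signal, again over different bases. Its median length was 104 kb in KO and 27 kb in WT, and the signal ratio ran from 0.0703 to 0.648. Over all regions of the HA libraries the median length was 62 kb in KO and 5 kb in WT, so longer KO regions were not particular to these genes. At Junb the HA region spanned 332 kb with a signal of 1.30 in KO, and 26 kb with a signal of 18.5 in WT. With a signal of at least 3, only Fosl1, Fosl2 and Egr1 stayed covered in KO, and 8 genes did in WT. Over 2464 expressed genes with a region in both, the median ratio was 0.101 and 98.2% were lower in KO.

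**Figure D4:**
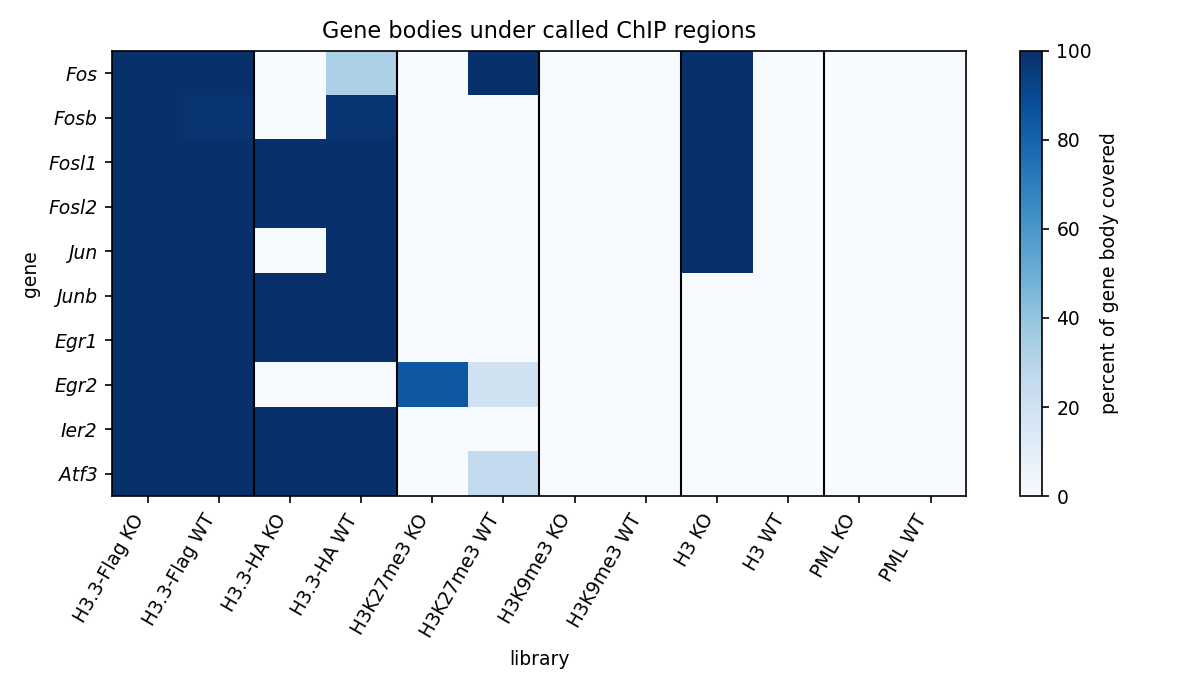
Percent of the gene body under called regions (colour, 0 to 100) for the 10 genes (down) in each of the 12 ChIP libraries (across), with KO left of WT for each target. H3.3-Flag covers all 10 genes in both genotypes, H3.3-HA is missing in KO over Fos, Fosb, Jun and Egr2, of which Egr2 lacks it in WT too, H3K27me3 covers Fos in WT and Egr2 in KO, and H3 covers Fos, Fosb, Fosl1, Fosl2 and Jun in KO.

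H3K27me3, the mark set by Polycomb repressive complexes, covered 1 gene in each genotype, Egr2 in KO and Fos in WT. Among expressed genes it covered 7.37% in KO and 9.01% in WT. Fos was uncovered in KO and wholly covered in WT, where the region ran over 138 kb (chr12:85380001-85518000) with a signal of 16.4, and Fos was the only protein-coding gene in it. Of that WT region, 7.97% was called in KO, and the nearest KO region lay 22.7 kb from Fos. A loss of cover of at least 50 percentage points was seen at 2.3% of expressed genes, and at 25.6% of the 880 expressed genes covered in WT, which alone could show one. Both pairs as deposited had less Fos RNA in KO, with a difference of 0.0496 in the numbered pair after rescaling. In WT, none of the 10 genes was covered when only the 300 Mb of highest signal were kept.

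Egr2 was covered by H3K27me3 over 84.6% of its body in KO and 19.8% in WT. Within 2 kb of its most upstream start among the promoter windows, it was covered in both genotypes. The region spanned 10 kb with a signal of 19.2 in KO (chr10:67531001-67541000), and 5 kb with a signal of 8.63 in WT (chr10:67531001-67536000). A gain of at least 50 percentage points was seen at 1.03% of expressed genes, and at 14.0% of the 720 covered in KO. Egr2 RNA was at least 2-fold lower in KO in both pairs as deposited, and -0.06 in the numbered pair after rescaling. Atf3 had 0% of its body under H3K27me3 in KO and 25.6% in WT, where a 35 kb region with a signal of 59.7 (chr1:191180001-191215000) overlapped the start of the gene, and a KO region began 0.667 kb from it. The other 7 genes were untouched by H3K27me3 in both genotypes.

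**Figure D5:**
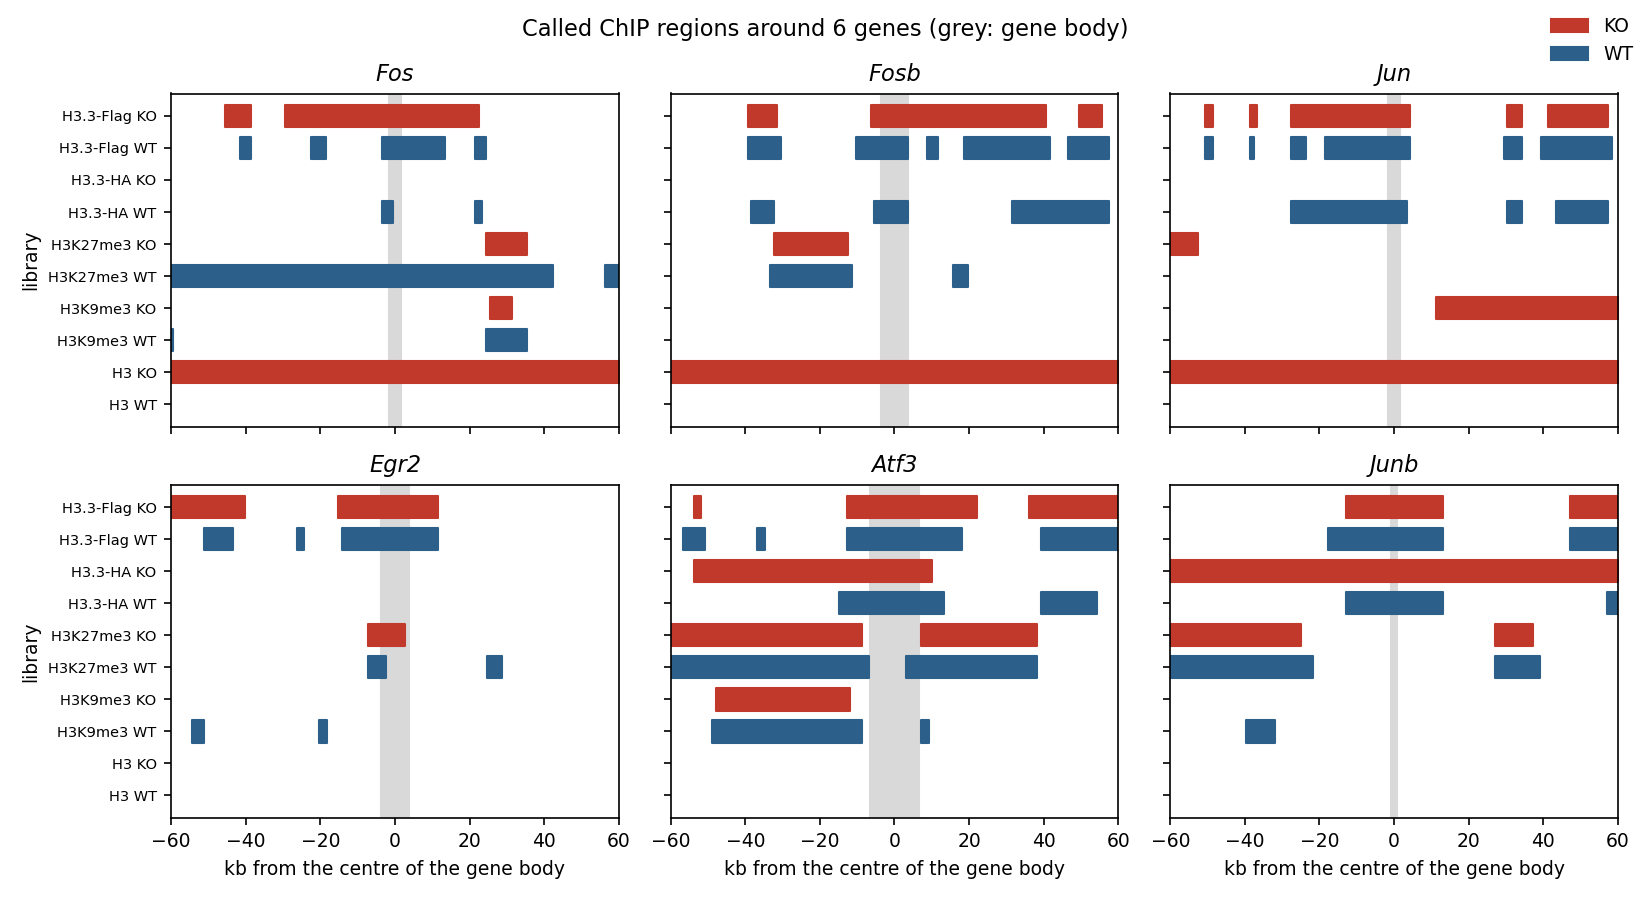
Called regions of the H3.3-Flag, H3.3-HA, H3K27me3, H3K9me3 and H3 libraries within 60 kb of the centre of 6 gene bodies (grey), with KO in red above WT in blue for each target and distance in kb on the horizontal axis. Around Fos the WT H3K27me3 region spans the gene and the KO region starts 22.7 kb away, while at Egr2 the KO region is the longer one, 10 kb against 5 kb in WT.

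H3K9me3, a mark of constitutive heterochromatin, touched none of the 10 genes in KO or WT, against 13.7% of expressed genes covered in KO and 4.78% in WT. PML regions, long gene-poor domains in the WT library, touched none of them either and covered 0.0205% of expressed genes in KO and 0.502% in WT. In WT they touched 0.911% of expressed genes and 12.9% of all genes. The nearest WT PML region lay 410.3 kb from Atf3 and 482.7 kb from Fosb, and up to 4611 kb away, at Egr1. The median of 2084 kb for the 10 genes stood beside 1637 kb for expressed genes.

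H3 regions, called on long windows, covered Fos, Fosb, Fosl1, Fosl2 and Jun in KO and none of the 10 in WT, against 39.9% of expressed genes in KO and 21.9% in WT, and 48.8% and 25.6% of those no longer than Fosl2. Cover higher in KO by at least 50 percentage points was seen at 20.1% of expressed genes, and at 50.4% of the 3894 covered in KO. The 5 genes that gained it were the 4 FOS genes and Jun, on 5 chromosomes. Cover of 5 of the 10 genes in KO was near the 48.8% of expressed genes no longer than Fosl2. The regions were long: 420 kb around Fos (chr12:85380001-85800000), 1120 kb around Fosb, 1230 kb around Fosl1, 380 kb around Fosl2 and 3490 kb around Jun. They held 4, 59, 63, 3 and 14 protein-coding genes, so each call also took in neighbours of the gene. None of their length was called in WT, where the nearest H3 region was 472.7 to 3358 kb from the gene. With only the 300 Mb of highest score kept, Jun alone stayed covered in KO.

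RNA of the neighbours in these H3 regions, leaving out the FOS genes and Jun themselves, did not follow 1 direction. In the unnumbered pair 1 of 32 measured neighbours of Fosb was lower and 0 higher, with a median of 0.08, while Fosb itself was at -3.02. Of the 44 measured neighbours of Fosl1, 0 were past 2-fold in that pair, and of the 6 of Jun 1 was higher and 0 lower. Of all genes in the unnumbered pair, 3.83% were lower and 1.74% higher. As deposited, the numbered pair had 14 of 31 neighbours of Fosb lower and 0 higher, 12 of 45 neighbours of Fosl1 lower and 1 higher, and 2 of 6 neighbours of Jun higher and 0 lower, against 15.7% lower and 6.5% higher of all genes. These numbered counts depend on the scaling and were not repeated after rescaling. Rescaling moved the median difference of all genes in that pair from 0.06 to 1.16. Jdp2, which encodes an AP-1 repressor and shares the region with Fos, had differences of -0.20 in the unnumbered pair and -0.15 in the numbered pair.

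The other immediate-early genes were set beside these. Of 32 matched to the annotation, H3.3-Flag covered 26 in KO and 26 in WT, H3.3-HA 25 in KO and 23 in WT, and H3K27me3 2 in KO and 3 in WT. H3 covered 14 of them in KO and 7 in WT, and PML 0 in both. The shares of expressed genes covered were 39.2% in KO and 37.1% in WT for H3.3-Flag, and 34% and 14.5% for H3.3-HA. They were 7.37% and 9.01% for H3K27me3, 39.9% and 21.9% for H3, and 0.0205% and 0.502% for PML. Among 13 other AP-1 and partner genes H3.3-Flag covered 7 in KO and 5 in WT, and H3 covered 10 in KO and 4 in WT. H3K27me3 covered Batf, Batf2 and Batf3 in both genotypes, which had at most 3.17 FPKM in any of the 4 tables.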

How the data were processed

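The 20 samples were 12 ChIP libraries and 8 RNA samples. The 10 genes and all gene lists were chosen with earlier results of these data known. The submitters' processing notes name the build mm10 and the tools Cuffdiff 2.2.1, Cufflinks 2.2.1, TopHat2 2.0.8b and Bowtie 1.0.0. The region-calling program is "not given in the sources used here", and no header names it. The RNA tables deposited by the authors hold FPKM per gene, 1 value for the pooled numbered samples of a genotype. The H3.3, H3K27me3 and H3K9me3 lists deposited by the authors hold called regions with a signal, and the H3 and PML lists a score per region. No library total was given, so the depth of each sample is unknown and values at 0 carry no detection limit.

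Scripts used Python 3.11.15, numpy 2.4.6 and pandas 2.3.3, with matplotlib 3.10.9 for plots. Lines that named several genes and repeated names were left out. Differences on the log2 scale, KO minus WT, used FPKM plus a pseudocount of 1. Genes with an FPKM of at least 1 in either genotype were used, and 2-fold is a description, since 1 value per genotype allows no test. Gene bodies were those of RefSeq GRCm38.p6, matched by symbol, and a gene counted as expressed where it was used in both pairs. All 10 genes are named. Of each list, up to 4 genes with the largest difference in a pair are named, genes named outside these rules, such as Jund and Jdp2, were chosen after their values were seen, and genes like Fos are the 5 with the smallest Euclidean distance. The 5-base core, the wider response element and the background of short genes were added after the values had been seen. The result for 1 listed gene is not reported here. Alternatives were another pseudocount, FPKM minimum, fold and scaling, and other region and overlap rules.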

Additional observations from a re-analysis of the deposited data

Results flagged for a closer look

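The difference between KO and WT had opposite signs in the numbered and the unnumbered pair of RNA tables for 4 of the 10 genes, with 1 value per genotype in each pair. The share of all genes with opposite signs was not counted, so 4 of 10 cannot be called unusual. Jun was at 1.06 in the numbered pair, against -0.96 in the unnumbered one. Junb was at 0.18 and -1.75 in the same pairs. Egr1 was at 0.70 in the numbered pair, against -2.62 in the unnumbered one. Atf3 was at 1.17 and -2.05 in the same pairs. Whether the pairs differ was not tested, since no replicate values were at hand.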

How the results depend on the processing

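No paired analysis was possible because the authors' tables hold 1 pooled column per genotype for the numbered samples, and no replicate could be left out. Of 80 alternatives for single RNA differences of the 10 genes, 60 stayed within 1.5-fold of the reported value, 19 moved further and 1 reversed: Fos in the numbered pair was 0.0496 after FPKM was rescaled to the same sum in every table. Under that rescaling 6 of the 10 genes were higher and 0 lower in the numbered pair, against 57.8% and 5.52% of all genes. Without ribosomal protein genes in the sum 5 were higher and 1 lower, against 37.5% and 8.54% of all genes. At 1.5-fold 5 of the numbered and 1 of the unnumbered differences were higher, against 18.9% and 5.92% of all genes. At 3-fold 0 were higher and 0 lower in the numbered pair, against 2.36% and 8.31% of all genes. The count of 7 lower in the unnumbered pair stayed within 1.5 times under all alternatives tried. H3.3-HA covered 3 genes in KO at a signal of at least 3. H3K27me3 covered 2 genes in WT with 5 kb added on both sides, and 0 in the 300 Mb of highest signal. It covered 3 in WT (Fos, Egr2 and Atf3) within 2 kb of the start, at a cover of 0.1 or at 1 bp. H3 covered 1 gene in KO in the 300 Mb of highest score. The rest of the cover counts, 69 of 76, stayed within 1.5 times. Of 128 alternatives for counts in the related gene lists, 39 moved by more than that. The scaling of the numbered tables changed because their summed FPKM differed, and the cause of that was not tested. Depth is unknown, so a gene listed at 0 or a missing call sets no limit.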
